A study of Mus musculus with 12 samples.

Results

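Splenic type 2 conventional dendritic cells (cDC2) of lymphoid origin, obtained in 2 ways, were compared across all genes: CLP-cDC2, grown in recipients from transferred common lymphoid progenitors (CLPs), and L-cDC2, marked by a fate-mapping reporter. Members were chosen by label, as the 3 libraries of each population, so that 6 of the series' 12 libraries carry the comparison. CLP-cDC2 descended from wild-type CD45.2+ CLPs that were injected into the marrow of B6.SJL recipients, which carry CD45.1. L-cDC2 were the tdTomato+ cells of mice with the genotype Il7r-cre; Rosa26-lsl-tdTomato, and M-cDC2 were the tdTomato- cells of that line. CDP-cDC2 descended from wild-type CD45.2+ common dendritic cell progenitors (CDPs) given to B6.SJL mice in the same way. Every mouse had received lipopolysaccharide (LPS) by intraperitoneal injection at 5 mg/kg, with spleens taken 4 days later. Mice were 7 to 8 weeks old and specific-pathogen-free, and no group without LPS was analysed here.

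A cDC2 presents antigen on MHC class II to CD4 T cells and is marked by Sirpa, Itgam and Irf4, and in the spleen a subset with Esam and CD4 depends on Notch2 and lymphotoxin signals. Conventional dendritic cells arise mostly through the CDP, whereas the CLP is best known as the source of B, T and NK cells and innate lymphoid cells. Cre driven by Il7r, the interleukin-7 receptor gene that CLPs express, marks for good every descendant of a cell that used the gene, lymphocytes included. LPS, sensed through Tlr4, makes dendritic cells mature. The labels give wild-type C57BL/6J mice as the background of all samples. They do not name the markers of the sort, or say whether recipients were irradiated and which blood cells they kept.

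The stated purpose was to see how similar CLP-derived cDC2 and L-cDC2 are. The populations differ in 2 respects at once, since CLP-cDC2 come from a transfer and L-cDC2 from a reporter line. System and origin of the cells therefore cannot be told apart within this pair. The myeloid pair, CDP-cDC2 and M-cDC2, differs by the same change of system, so its difference is given beside that of the lymphoid pair. Whether replicates came from separate mice is not stated in the labels, so the spread behind each p-value is that between these samples and may be technical.

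Levels are deposited FPKM (fragments per kilobase of gene at a fixed total of assigned fragments), and differences are CLP-cDC2 minus L-cDC2 on the log2(FPKM + 1) scale with their standard error (SE), which understates changes of weakly expressed genes. In RNA from sorted pools, fewer cells with a gene and less RNA per cell cannot be told apart. A gene is called where limma's Benjamini-Hochberg adjusted p is under 0.05 over the 14538 of 55322 genes tested. L-cDC2 replicate 2 was the shallowest library with 26543345 assigned reads and L-cDC2 replicate 3 the deepest with 73732243, with CLP-cDC2 replicates between 33960731 and 45623857. CLP-cDC2 replicate 2 stood apart from its group in antibody and macrophage genes and L-cDC2 replicate 2 in neutrophil genes (below). CLP-cDC2 replicate 1 was the highest of its group in summed plasmacytoid dendritic cell genes (below). Outside the pair, CDP-cDC2 replicate 3 lay apart on principal component 2 (-50.6) and M-cDC2 replicate 3 on principal component 3 (-40.5). The labelled cell type was checked by its markers: Sirpa, Itgax, Flt3, Zbtb46 and Irf4 were present in each of the 6 libraries, at no less than 38.1, 55.1, 86.2, 8.03 and 4.95 FPKM. Xcr1 and Clec9a of cDC1, the other conventional lineage, stayed under 5 FPKM. Cd3e of T cells was at 0.15 FPKM or less and Cd207 was at 0 in all 6. Other genes of these and further cell types were present. The cDC1 list summed to 452.3 to 499.6 FPKM in CLP-cDC2 and 306.2 to 335.8 FPKM in L-cDC2. For the B cell list the sums were 490.1 to 1076 and 1689 to 2407 FPKM. NK and innate lymphoid genes summed to 209.9 to 297.5 and 785.6 to 920.5 FPKM, and T cell genes to 19.8 to 28.2 and 48.4 to 63.6 FPKM. The single low markers therefore do not show that other cells were absent.

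Across the transcriptome most genes lay within 2-fold of each other in the 2 populations. The 95% interval of the difference was inside 2-fold for 11635 genes, which is 80% of those tested. That share depends on the scale, at 61.8% with a pseudocount of 0.1, 95.1% with one of 5 and 59.7% with voom on recovered reads. Called genes numbered 1542 (10.6% of those tested), of which 623 were higher in CLP-cDC2 (4.29%) and 919 lower (6.32%). At an unadjusted p under 0.05 there were 3922. The 3 CLP-cDC2 and 3 L-cDC2 values did not overlap in 5198 genes (35.8%). On the log2(FPKM + 1) scale a called difference was at least 1 in size in 479 genes and at least 2 in 110. Both an uncalled difference and an interval inside 2-fold were found for 11127 genes, and 1869 were neither called nor bounded within 2-fold. The counts depend on single libraries: leaving out L-cDC2 replicate 2, the shallowest library and the one with neutrophil genes, left 133 genes higher and 370 lower, of which 498 of 503 were called in the same direction with all libraries.

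The called share rose with expression level. Genes were classed by the higher of their 2 group means. Of 647 genes below 1 FPKM 0.464% were called, against 6.23% of 5762 genes from 1 to 5 FPKM, 11.3% of 4604 from 5 to 20, 17.4% of 2651 from 20 to 100 and 22.9% of 874 at 100 FPKM or more. Direction also shifted with level: among the most abundant genes 122 were higher and 78 lower in CLP-cDC2. The median SE fell from 0.237 below 1 FPKM to 0.139 at 100 FPKM or more. The share with an interval inside 2-fold ran from 78% to 85.4% over these classes, so most abundant genes stayed within 2-fold. Below 1 FPKM the log2(FPKM + 1) scale itself keeps differences small. The 85.2% in that class therefore does not show that levels were alike. Of the 100 most abundant genes of each population, 86 were shared between CLP-cDC2 and L-cDC2, beside 88 between CLP-cDC2 and CDP-cDC2, 89 between CLP-cDC2 and M-cDC2 and 94 between L-cDC2 and M-cDC2.

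**Figure D1:**
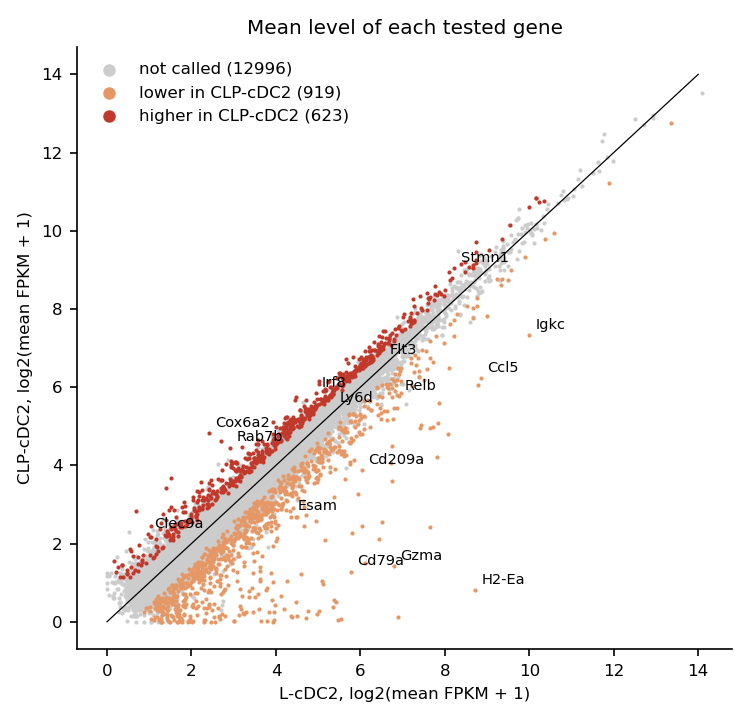
Mean level of each of the 14538 tested genes, with log2(mean FPKM + 1) in L-cDC2 on the x axis and in CLP-cDC2 on the y axis, 1 point a gene and the line of equal levels in black. Most points follow the line, with 623 genes called higher in CLP-cDC2, 919 called lower, and H2-Ea, Gzma and Cd79a well below it.

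Whole profiles were compared by the root mean square of the log2 difference over the genes tested. CLP-cDC2 and L-cDC2 libraries lay 0.612 ± 0.043 apart (SD over 9 pairs, from 0.558 to 0.678), beyond the 0.431 among CLP-cDC2 libraries and the 0.376 among L-cDC2 libraries. The excess of the distance between groups over that within them was 0.208, and an exact two-sided permutation test gave p = 0.1, the smallest its 10 distinct splits allow. The mean distance of CLP-cDC2 was 0.595 to CDP-cDC2, which share the transfer, and 0.540 to M-cDC2, which share neither origin nor system. Each of the 3 CLP-cDC2 libraries was nearer to M-cDC2 (0.553, 0.550 and 0.517) than to L-cDC2 (0.630, 0.591 and 0.614), an order that was not tested. Antibody genes, T cell receptor genes and the lists of other cell types were then removed, which left 14346 genes. On this reduced set the distance to L-cDC2 was 0.538, against 0.576 to CDP-cDC2 and 0.521 to M-cDC2. These raw distances hold the spread within each group, which was unlike. It was 0.376 in L-cDC2, 0.490 in CDP-cDC2 and 0.385 in M-cDC2 over all genes, and 0.352, 0.482 and 0.382 over the reduced set. That spread was not taken off, so the orders are of raw distances only. Over all genes M-cDC2 stayed the nearest group whichever library was left out, at 0.516 to 0.555. The other ranks turn on single libraries. Without L-cDC2 replicate 2 the distance to L-cDC2 was 0.586 over all genes, below the 0.595 to CDP-cDC2, and 0.507 over the reduced set, below that to M-cDC2. Without CDP-cDC2 replicate 1 or 2 the distance to CDP-cDC2 over all genes was 0.616 or 0.624, beyond the 0.612 to L-cDC2, and without CDP-cDC2 replicate 3 that over the reduced set was 0.524, below the one to L-cDC2.

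**Figure D2:**
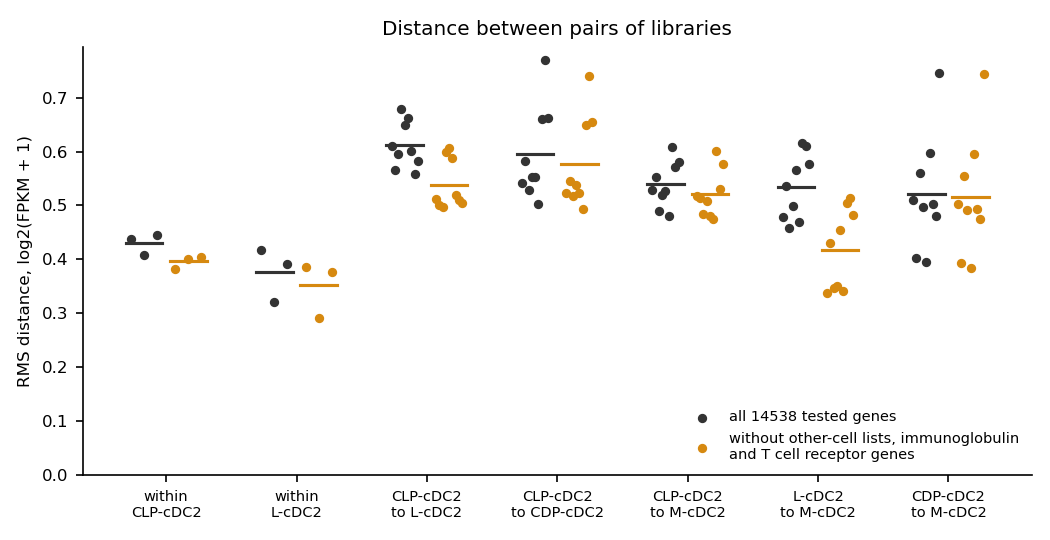
Root mean square distance on the log2(FPKM + 1) scale (y axis) between pairs of libraries, 1 point a pair and a bar at the mean, for all tested genes and without the genes of other cell types. The 9 CLP-cDC2 to L-cDC2 distances run from 0.558 to 0.678, above those within CLP-cDC2 (mean 0.431) and within L-cDC2 (mean 0.376).

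Genes associated with lymphoid progenitors, Ly6d, Il7r and Tcf7, showed no called difference between the 2 populations. Ly6d, a surface protein of early lymphoid progenitors, is also on the list of plasmacytoid dendritic cell genes used here. The part of such cells in its level was not tested. Ly6d was at 68.8, 36.4 and 23.9 FPKM in CLP-cDC2 replicates 1, 2 and 3. In the same replicates of L-cDC2 it was at 45.9, 33.2 and 41.2 FPKM. The ranges overlapped, and the difference was -0.02 ± 0.46, with a 95% interval of -1.01 to 0.96. CDP-cDC2 had 2.94, 3.45 and 0.494 FPKM of Ly6d and M-cDC2 0.954, 0.0273 and 1.64 FPKM, so that every lymphoid library was above every myeloid one. Il7r, whose promoter drives the reporter's Cre, stood at 3.16, 2.36 and 2.91 FPKM in CLP-cDC2 and 3.05, 2.2 and 1.92 FPKM in L-cDC2, again with overlap (difference 0.18 ± 0.18, interval -0.20 to 0.56). Tcf7, a transcription factor of lymphoid cells, stood at 9.7, 8.28 and 7.54 FPKM in CLP-cDC2 and 6.79, 7.29 and 6.2 FPKM in L-cDC2, a difference of 0.29 ± 0.15 with an interval of -0.04 to 0.62. All 3 CLP-cDC2 values of Tcf7 were above all 3 of L-cDC2, without a call (limma adjusted p = 0.245). In M-cDC2 Tcf7 was at 2.23, 2.45 and 2.11 FPKM and in CDP-cDC2 at 2.49, 3.69 and 3.43 FPKM, below every lymphoid library.

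Of the 9 tested members of the lymphoid progenitor list, 0 were higher and 2 lower in CLP-cDC2, with a median difference of -0.02. That is 22.2% called, against 10.6% of all genes tested. Both lower members are transcription factors of lymphocytes: Ets1 (0.914, 1.4 and 1.15 against 2.72, 3.89 and 3 FPKM, difference -0.96 ± 0.17, limma adjusted p = 0.00434) and Gata3 (0.244, 0.51 and 0.506 against 1.3, 1.34 and 1.16 FPKM, difference -0.68 ± 0.15, adjusted p = 0.0148). Gata3 passed the filter of 1 FPKM in 3 libraries only through L-cDC2, so it was not tested without any one of them, and its call was lost without CLP-cDC2 replicate 1 (highest adjusted p over the alternatives 0.083). Rag1 and Rag2, the recombinase genes of developing lymphocytes, were at 0 in all L-cDC2 libraries and at most 0.271 FPKM in CLP-cDC2. Cd7, a surface protein of early lymphoid and some dendritic cells, was among the abundant genes with close levels, at 568, 513 and 565 FPKM in CLP-cDC2 and 613, 641 and 625 FPKM in L-cDC2. Cd79b, the B cell receptor's signalling chain, likewise stood at 57.3, 58.8 and 57 FPKM in CLP-cDC2 and 53.6, 61.3 and 58.2 FPKM in L-cDC2, and the difference was 0.001 ± 0.17 with an interval of -0.38 to 0.38.

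**Figure D3:**
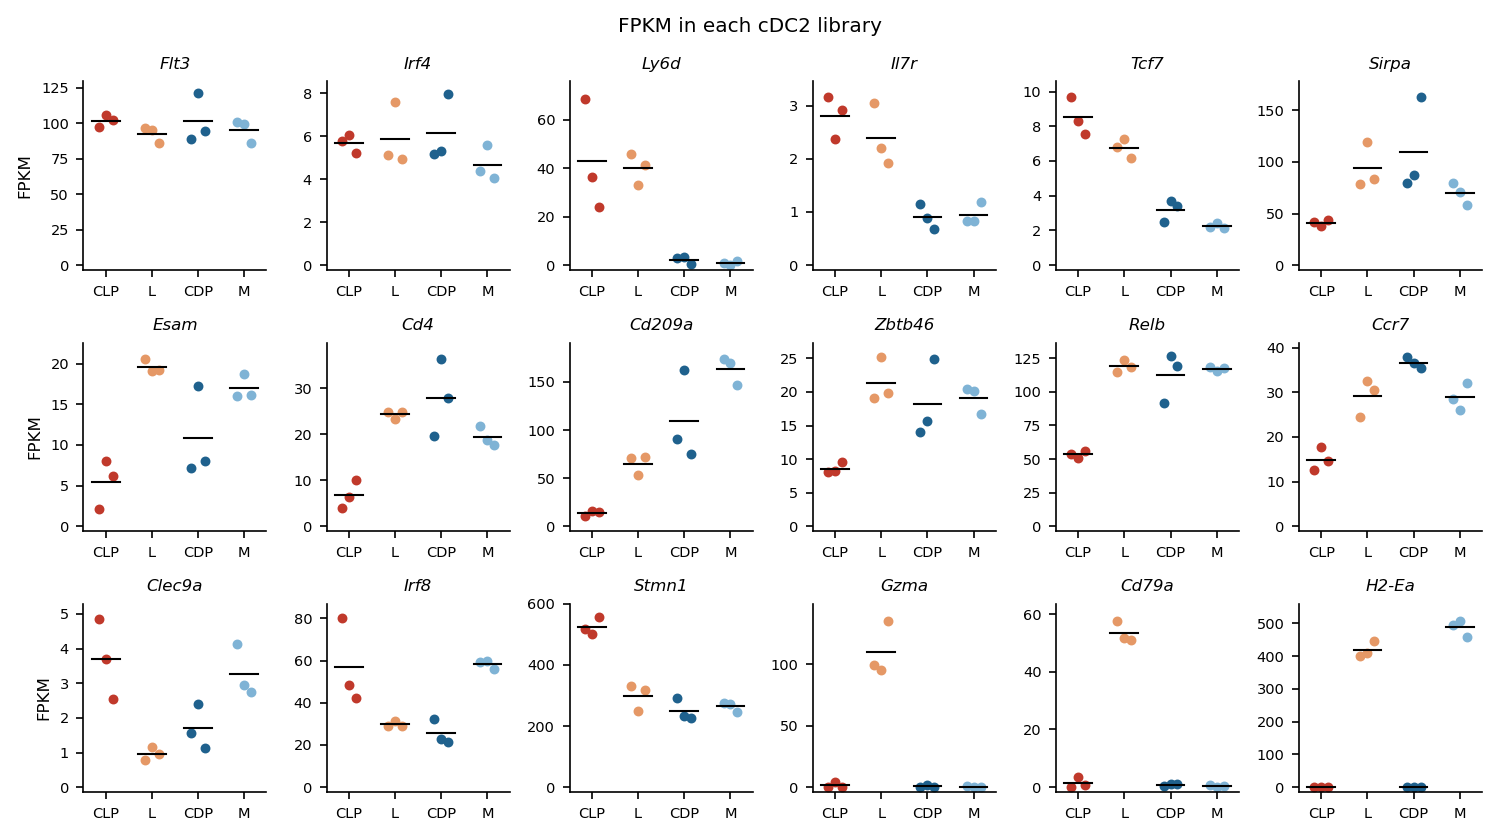
FPKM (y axis, a separate linear scale for each gene) of 18 genes in the 12 libraries, 1 point a library, grouped as CLP-cDC2, L-cDC2, CDP-cDC2 and M-cDC2 with a bar at each mean. Irf4, Ly6d and Il7r overlap between CLP-cDC2 and L-cDC2, while Esam, Cd209a, Relb, Gzma and H2-Ea are lower in every CLP-cDC2 library and Clec9a and Stmn1 higher.

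Genes of the cDC2 identity list were more often lower than higher in CLP-cDC2, and some stayed at like levels. Of 26 tested cDC2 identity genes 2 were higher and 11 lower (50% called, against 10.6% of all genes tested). The median difference was -0.39, against -0.0044 over all tested genes. Negative differences were found in 20 of the 26, and 11 had an interval inside 2-fold. Of the 26, 1 passed the filter on low values only through L-cDC2. The summed level of the list was 1020 to 1118 FPKM in CLP-cDC2 against 1599 to 1670 FPKM in L-cDC2. Those summed ranges did not overlap. Among the members at close levels was Flt3, the growth factor receptor of dendritic cells. It was at 97, 106 and 102 FPKM in CLP-cDC2 and 96.9, 94.9 and 86.2 FPKM in L-cDC2 (uncalled and without overlap, difference 0.13 ± 0.12, interval -0.14 to 0.41). Irf4, the cDC2 transcription factor, was at 5.8, 6.05 and 5.22 against 5.14, 7.58 and 4.95 FPKM (interval -0.44 to 0.39). Rbpj, the transcription factor of Notch signalling, differed by -0.003 ± 0.21 with an interval of -0.45 to 0.45, and Notch2 itself by -0.04 ± 0.24 (-0.56 to 0.48). Ltbr, the lymphotoxin receptor, differed by 0.14 ± 0.15 (-0.18 to 0.47). These intervals lie inside 2-fold for all 5 genes. The 5 are set together here for their close levels, so this describes them and not the list.

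Among the genes lower in CLP-cDC2 were surface lectins and receptors of cDC2. Cd209a, a C-type lectin, was at 10.1, 16.1 and 15.2 FPKM in CLP-cDC2 and 70.4, 53.3 and 71.5 FPKM in L-cDC2, a difference of -2.17 ± 0.25 (SE, limma adjusted p = 0.000161). Clec10a was at 1.43, 1.5 and 1.15 against 4.36, 4.78 and 5.92 FPKM, a difference of -1.35 ± 0.18 (adjusted p = 0.000421), and Mgl2 differed by -2.13 ± 0.24 from a level of at most 0.419 FPKM in CLP-cDC2. Each of the 3 lectins was lower in every CLP-cDC2 library than in any L-cDC2 library. Sirpa, the signal-regulatory receptor used to define cDC2, was at 41.6, 38.1 and 43.3 FPKM in CLP-cDC2 and 78.8, 119 and 83.7 FPKM in L-cDC2, a difference of -1.15 ± 0.24 (adjusted p = 0.00993). L-cDC2 replicate 2 was the highest library for Sirpa, and without it the call was lost (highest adjusted p over the alternatives 0.0594). Itgax and Itgam, the integrins CD11c and CD11b, were not called (differences -0.70 ± 0.23 and -0.40 ± 0.22, adjusted p = 0.0745 and 0.269).

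Transcription factors of dendritic cells moved in both directions. Zbtb46, the factor that sets conventional dendritic cells apart, was at 8.03, 8.19 and 9.55 FPKM in CLP-cDC2 and 19.1, 25.2 and 19.8 FPKM in L-cDC2, a difference of -1.22 ± 0.19 (adjusted p = 0.00173). Relb, the NF-kB subunit that splenic cDC2 need, was at 53.9, 50.7 and 55.8 FPKM in CLP-cDC2 and 115, 124 and 119 FPKM in L-cDC2, a difference of -1.14 ± 0.12 (adjusted p = 7.18e-05). Tbx21, the T-bet gene of NK cells, T helper 1 cells and a cDC2 subset, was at 21, 14 and 18.5 against 44.7, 53.3 and 45.6 FPKM (difference -1.39 ± 0.17, adjusted p = 0.00033). In all 3 genes no CLP-cDC2 library reached the lowest L-cDC2 library. Tbx21 is also expressed by the NK and innate lymphoid cells described further on, whose part in its difference was not tested.

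Higher in CLP-cDC2 were Clec12a, an inhibitory lectin receptor, and Klf4, a factor of one cDC2 branch. Clec12a stood at 14.9, 12.6 and 13.8 FPKM in CLP-cDC2 and 6.04, 4.74 and 6.15 FPKM in L-cDC2 (difference 1.16 ± 0.24, adjusted p = 0.00905). Klf4 stood at 26.5, 15.7 and 24.9 FPKM in CLP-cDC2 and 12.1, 11.3 and 13.1 FPKM in L-cDC2 (difference 0.79 ± 0.19, adjusted p = 0.0189), and it was also higher in CDP-cDC2 than in M-cDC2, by 1.005 (adjusted p = 0.0175). All CLP-cDC2 libraries were above all L-cDC2 libraries in both genes. Without L-cDC2 replicate 2 neither was called (highest adjusted p over the alternatives 0.0529 and 0.0857), and the Klf4 call was lost also without CLP-cDC2 replicate 1, CLP-cDC2 replicate 3 or L-cDC2 replicate 1.

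Of 9 tested genes of the Notch-dependent splenic subset, 5 were lower in CLP-cDC2 and 0 higher (median -1.02). The share called was 55.6%, against 10.6% of all genes tested. Esam, the adhesion molecule that names the subset, was at 2.14, 8.07 and 6.12 FPKM in CLP-cDC2 and 20.6, 19.1 and 19.2 FPKM in L-cDC2, a difference of -1.81 ± 0.35 (adjusted p = 0.00679). Cd4 was at 3.91, 6.24 and 9.98 FPKM in CLP-cDC2 and 24.8, 23.3 and 24.8 FPKM in L-cDC2 (difference -1.79 ± 0.26, adjusted p = 0.000939). Cdh17, a cadherin, was at 3.9, 4.99 and 7.42 FPKM in CLP-cDC2 and 22.3, 22.9 and 20.1 FPKM in L-cDC2 (difference -1.86 ± 0.37, adjusted p = 0.00859). No value of the CLP-cDC2 libraries reached an L-cDC2 value in these 3 genes. The Notch targets Dtx1 and Hes1 completed the set, at differences of -1.02 ± 0.23 and -1.35 ± 0.38 (adjusted p = 0.0143 and 0.0399). Summed over the list, CLP-cDC2 had 181.5 to 262.7 FPKM and L-cDC2 366.9 to 385.3 FPKM. Without CLP-cDC2 replicate 1 or L-cDC2 replicate 2 the list had 3 lower members, as Dtx1 and Hes1 were then not called.

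In the myeloid pair, CDP-cDC2 minus M-cDC2 was -1.45 for Cdh17 (limma adjusted p = 0.0598) and -0.70 for Esam (adjusted p = 0.282), neither of them called. The Cd4 difference of that pair was 0.47, and the contrast between the pairs for Cd4, -2.26 ± 0.37, was called (limma adjusted p = 0.00546). For Esam that contrast was -1.11 ± 0.50 and not called (adjusted p = 0.189). Over the cDC2 identity list 13 of 26 members were called in the contrast between the pairs, where 5.99% of all tested genes were called. Of these 13, 2 had a more positive and 11 a more negative difference in the lymphoid pair.

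Some cDC1 genes were higher in CLP-cDC2 than in L-cDC2. Of 14 tested members of the cDC1 list 6 were higher and 0 lower (median 0.46), or 42.9% called against 10.6% of all genes tested. The summed level was 452.3 to 499.6 FPKM against 306.2 to 335.8 FPKM. Clec9a, the dead-cell receptor of cDC1, was at 4.85, 3.69 and 2.55 FPKM in CLP-cDC2 and 0.787, 1.16 and 0.951 FPKM in L-cDC2, a difference of 1.23 ± 0.22 (adjusted p = 0.00458). Irf8, the cDC1 transcription factor, was at 79.9, 48.6 and 42.3 FPKM in CLP-cDC2 and 28.9, 31.3 and 29.2 FPKM in L-cDC2, a difference of 0.86 ± 0.20 (adjusted p = 0.0196). Neither gene's ranges overlapped. Xcr1, the chemokine receptor of cDC1, was at 4.04, 3.67 and 3.74 against 2.97, 2.11 and 2.12 FPKM, and its difference of 0.51 ± 0.18 was not called (adjusted p = 0.0856).

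Several cDC1 genes took the other direction in the myeloid pair. There 0 were higher and 7 lower in CDP-cDC2 than in M-cDC2 (median -0.74). The contrast between the pairs was called in 9 of the 14, all more positive in the lymphoid pair. Over all tested genes 2.58% were called in the myeloid pair and 5.99% in the contrast. For Irf8 the myeloid difference was -1.18 and the contrast 2.04 ± 0.29 (adjusted p = 0.00278), for Xcr1 -1.24 and 1.75 ± 0.25 (adjusted p = 0.00311). The count of 6 is a fragile one. It was 3, 2 and 2 without CLP-cDC2 replicates 1, 2 and 3, and 3, 1 and 1 without L-cDC2 replicates 1, 2 and 3. Clec9a kept its call in every alternative that tested it, whereas that of Irf8 was lost without CLP-cDC2 replicate 1 or any L-cDC2 library (highest adjusted p 0.0864).

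A set of maturation genes was lower in CLP-cDC2. Of 21 tested members 10 were lower and 0 higher (median -0.62), or 47.6% called against 10.6% of all genes tested. The summed level of the list was 226.8 to 282.1 FPKM in CLP-cDC2 against 425.8 to 439.8 FPKM in L-cDC2. Ccr7, the receptor that takes mature dendritic cells to T cell zones, was at 12.5, 17.7 and 14.5 FPKM in CLP-cDC2 and 24.4, 32.5 and 30.5 FPKM in L-cDC2, a difference of -0.92 ± 0.15 (adjusted p = 0.00184). Cd40, the costimulatory receptor, was at 16.3, 17.5 and 16.5 FPKM in CLP-cDC2 and 33.3, 31 and 35.6 FPKM in L-cDC2 (difference -0.95 ± 0.12, adjusted p = 0.000322). Il4i1, an amino acid oxidase of mature dendritic cells, was at 9.01, 9.55 and 8.15 FPKM in CLP-cDC2 and 21.2, 22.1 and 19.4 FPKM in L-cDC2 (difference -1.15 ± 0.13, adjusted p = 0.00015). The ranges of the 3 genes were apart. Cacnb3, a calcium channel subunit of mature dendritic cells, was at 0.602, 0.276 and 0.623 FPKM in CLP-cDC2 and 3.65, 3.94 and 4.61 FPKM in L-cDC2 (difference -1.76 ± 0.18, adjusted p = 5.99e-05), and Nudt17 differed by -1.97 ± 0.22 (adjusted p = 0.00014).

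Of the ligands that costimulate T cells, Cd86 was at 15.3, 19.2 and 23.5 FPKM in CLP-cDC2 and 23.1, 24.3 and 24.1 FPKM in L-cDC2, with overlap and an interval of -0.62 to 0.01, and Cd80 differed by -0.43 ± 0.22 (interval -0.90 to 0.04), both inside 2-fold and uncalled. Cd83, the maturation marker, was uncalled with an interval that passed 2-fold (-1.05 to -0.15). In the myeloid pair 1 maturation gene was higher and 0 lower, where 2.58% of all tested genes were called. In the contrast between the pairs 8 of the 21 were called, against 5.99% of all tested genes. Ccr7 was among the 8 (-1.26 ± 0.21, limma adjusted p = 0.00599). Without CLP-cDC2 replicate 1, L-cDC2 replicate 1, L-cDC2 replicate 3 or M-cDC2 replicate 2 the list had 6 lower members. Relb, Cd40, Ccr7, Cacnb3, Il4i1 and Nudt17 were called in each alternative that tested them, out of 25.

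Downstream genes of LPS sensing followed in part. Of 25 tested members of that list 6 were lower in CLP-cDC2 and 0 higher (median -0.36). That is 24% called, against 10.6% of all genes tested. Nfkb2, the p100 precursor of the alternative NF-kB pathway, was at 37, 24.7 and 30.2 FPKM in CLP-cDC2 and 55.1, 66.1 and 52 FPKM in L-cDC2 (difference -0.90 ± 0.18, adjusted p = 0.00719). Nfkbie, an NF-kB inhibitor, was at 39.9, 45.5 and 45.3 FPKM in CLP-cDC2 and 66.9, 76.7 and 69.9 FPKM in L-cDC2 (difference -0.70 ± 0.11, adjusted p = 0.00143). Both genes were lower in every CLP-cDC2 library. The kinase gene Irak2 differed by -0.96 ± 0.17 and the interferon regulatory factor gene Irf5 by -0.62 ± 0.12 (adjusted p = 0.0032 and 0.0063). By contrast Nfkb1, the p105 gene of the classical pathway, was at 88.2, 89.7 and 83.8 FPKM in CLP-cDC2 and 86.9, 85 and 85.8 FPKM in L-cDC2 (interval -0.18 to 0.22), and the adaptor gene Myd88 differed by 0.05 ± 0.10 (interval -0.17 to 0.27). Tlr4 was too low to be tested, at 0.488 FPKM or less in the 6 libraries.

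The promoters of the lower genes of these 2 lists were searched for the NF-kB motif GGGNNTTCC on either strand, GGAANNCCC in reverse, in the 250 bases before each RefSeq start (GRCm38.p6). Of 15 lower genes 11 were in the promoter table, with 15 windows, and a match was found in 2 genes, 1 window each. Among all 32851 windows 1635 (4.98%) held the motif. The 2 windows are printed because they hold the motif and Nfkb2 and Nfkbie kept their calls in every alternative. Capitals mark the bases in a match, and the strand is + for both. The first window, chr19:46304487-46304736, holds 3 matches, of which 2 overlap, and the second, chr17:45555450-45555699, holds 1.
Nfkb2: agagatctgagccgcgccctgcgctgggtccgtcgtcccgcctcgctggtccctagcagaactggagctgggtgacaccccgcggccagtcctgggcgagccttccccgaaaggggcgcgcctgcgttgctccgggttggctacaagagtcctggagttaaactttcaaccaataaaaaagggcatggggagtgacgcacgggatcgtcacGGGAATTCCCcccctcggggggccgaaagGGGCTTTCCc
Nfkbie: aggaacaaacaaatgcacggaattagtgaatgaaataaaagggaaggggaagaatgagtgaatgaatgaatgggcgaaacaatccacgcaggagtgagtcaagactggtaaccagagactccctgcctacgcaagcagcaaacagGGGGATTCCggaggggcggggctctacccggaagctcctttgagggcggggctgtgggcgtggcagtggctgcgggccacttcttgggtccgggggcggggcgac
A match describes these letters and is not a measured site of binding.

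A set of cell cycle genes was higher in CLP-cDC2. Of 36 tested members 13 were higher and 0 lower (median 0.43), or 36.1% called against 10.6% of all genes tested. The summed level was 2404 to 2617 FPKM against 1625 to 1833 FPKM. Stmn1, a microtubule regulator of dividing cells, was at 518, 499.6 and 556 FPKM in CLP-cDC2 and 329.8, 249 and 317 FPKM in L-cDC2, a difference of 0.82 ± 0.13 (adjusted p = 0.00195). Tyms, thymidylate synthase, was at 27.4, 34.1 and 34.4 FPKM in CLP-cDC2 and 21.6, 19.2 and 18.5 FPKM in L-cDC2 (difference 0.66 ± 0.12, adjusted p = 0.00468). Aurkb, a mitotic kinase, was at 80.6, 77 and 81.2 against 54.6, 45 and 56.2 FPKM (difference 0.61 ± 0.11, adjusted p = 0.00501). All 3 genes separated the libraries completely. Mki67, the proliferation marker, was not called (0.60 ± 0.19, adjusted p = 0.0613), and the replication helicase genes Mcm2 and Mcm4 differed by 0.01 ± 0.20 and -0.01 ± 0.16.

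This list had no called member in the myeloid pair, where 2.58% of all tested genes were called. In the contrast between the pairs 7 of 36 members were called, against 5.99% of all tested genes. Stmn1 was among the 7, at 0.91 ± 0.19 (limma adjusted p = 0.0171). Without L-cDC2 replicate 2 only 3 members remained called, and without CLP-cDC2 replicate 2 or 3 there were 8. Of 12 tested serine and one-carbon genes 5 were higher and 0 lower (41.7% called, against 10.6% of all genes tested). That count was 2 without CLP-cDC2 replicate 1, L-cDC2 replicate 1 or L-cDC2 replicate 2, and 3 without CLP-cDC2 replicate 2, CLP-cDC2 replicate 3, L-cDC2 replicate 3 or M-cDC2 replicate 2.

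In glycolysis 5 of 21 tested genes (20 symbols, as Aldoa stands for a pair of genes) were higher and 1 lower. The 23.8% higher compares with 4.29% of all genes tested. Among more abundant genes the share higher was larger, 9.28% at 20 to 100 FPKM and 14% at 100 FPKM or more. Of the 21 glycolysis genes 6 stood at 100 FPKM or more. Gapdh, the glyceraldehyde phosphate dehydrogenase, was at 472, 427 and 416 FPKM in CLP-cDC2 and 292, 263 and 306 FPKM in L-cDC2 (difference 0.61 ± 0.11, adjusted p = 0.00366), without overlap. The glucose transporter gene Slc2a3 went the other way (-1.09 ± 0.24, adjusted p = 0.0132), a call that was lost without CLP-cDC2 replicate 2 or L-cDC2 replicate 2, while the lower count was 3 without CDP-cDC2 replicate 1, 4 without CDP-cDC2 replicate 3 and 2 without M-cDC2 replicate 3. The 5 higher members became 2 without CLP-cDC2 replicate 1 or 2, 3 without L-cDC2 replicate 1 or 3, and 1 without L-cDC2 replicate 2. Cholesterol synthesis had no called gene among 23. Of 28 type I interferon response genes 1 was higher and 0 lower, a called share of 3.57% that is below the 10.6% of all genes tested. The higher gene was Ifi27l2a (432, 422 and 616 against 284, 269.5 and 268 FPKM, difference 0.81 ± 0.19). Its call was lost without CLP-cDC2 replicate 3, L-cDC2 replicate 2 or L-cDC2 replicate 3. Oxidative phosphorylation genes had 6 of 49 higher (12.2%; 48 symbols, with Atp5o as a pair of genes) and cytosolic ribosomal protein genes 4 of 56 (7.14%), with 0 lower in either list. At 100 FPKM or more, where 34 and 52 of these genes stood, 14% of all tested genes were higher, so neither share exceeds that of abundant genes. Both counts turned on single libraries. The first was 0 without any CLP-cDC2 library, L-cDC2 replicate 2 or L-cDC2 replicate 3, 3 without L-cDC2 replicate 1, 2 without CDP-cDC2 replicate 2, M-cDC2 replicate 1 or M-cDC2 replicate 2, and 14 without CDP-cDC2 replicate 3. The second was 0 without CLP-cDC2 replicate 1 or L-cDC2 replicate 2, 1 without CLP-cDC2 replicate 2, L-cDC2 replicate 1 or L-cDC2 replicate 3, 2 without CLP-cDC2 replicate 3, and likewise 14 without CDP-cDC2 replicate 3.

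Several cytokine and migration genes were called. Tnf, the inflammatory cytokine, was at 6.74, 9.26 and 10.7 FPKM in CLP-cDC2 and 15.8, 18.5 and 18.5 FPKM in L-cDC2 (difference -0.93 ± 0.19, adjusted p = 0.00922). Ltb, the lymphotoxin beta chain, was at 359, 427 and 387 FPKM in CLP-cDC2 and 643, 650.4 and 646 FPKM in L-cDC2 (difference -0.73 ± 0.14, adjusted p = 0.00675). Itgb2, the beta chain of the leukocyte integrins, was at 282, 274 and 245 FPKM in CLP-cDC2 and 436, 438 and 420.0 FPKM in L-cDC2 (difference -0.69 ± 0.10, adjusted p = 0.000729). No CLP-cDC2 library reached L-cDC2 in these 3 genes. Cxcr4, the receptor that holds cells in the bone marrow, was higher in CLP-cDC2, at 4.66, 4.06 and 3.88 FPKM against 1.29, 2 and 2.26 FPKM (difference 0.88 ± 0.18, adjusted p = 0.00922), again without overlap. Each of the 4 calls held in every alternative that tested the gene. Of the MHC class II list, 1 of 17 members was higher (Ifi30, a call lost without any one of the 6 libraries) and 4 lower. That is 29.4% called, against 10.6% of all genes tested. The lower members were H2-Ob, H2-Eb2, H2-Ea and Cd74, and H2-Ea was called lower also in CDP-cDC2 than in M-cDC2 (below). Among the lower was Cd74, the invariant chain, at 6511, 6682 and 7448 FPKM in CLP-cDC2 and 10020, 11100 and 10450 FPKM in L-cDC2. Its difference was -0.61 ± 0.13 (limma adjusted p = 0.00918), and it was not called without L-cDC2 replicate 2. The class II count of 4 was 2 without CLP-cDC2 replicate 1 or 2 or L-cDC2 replicate 1 or 2.

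**Figure D4:**
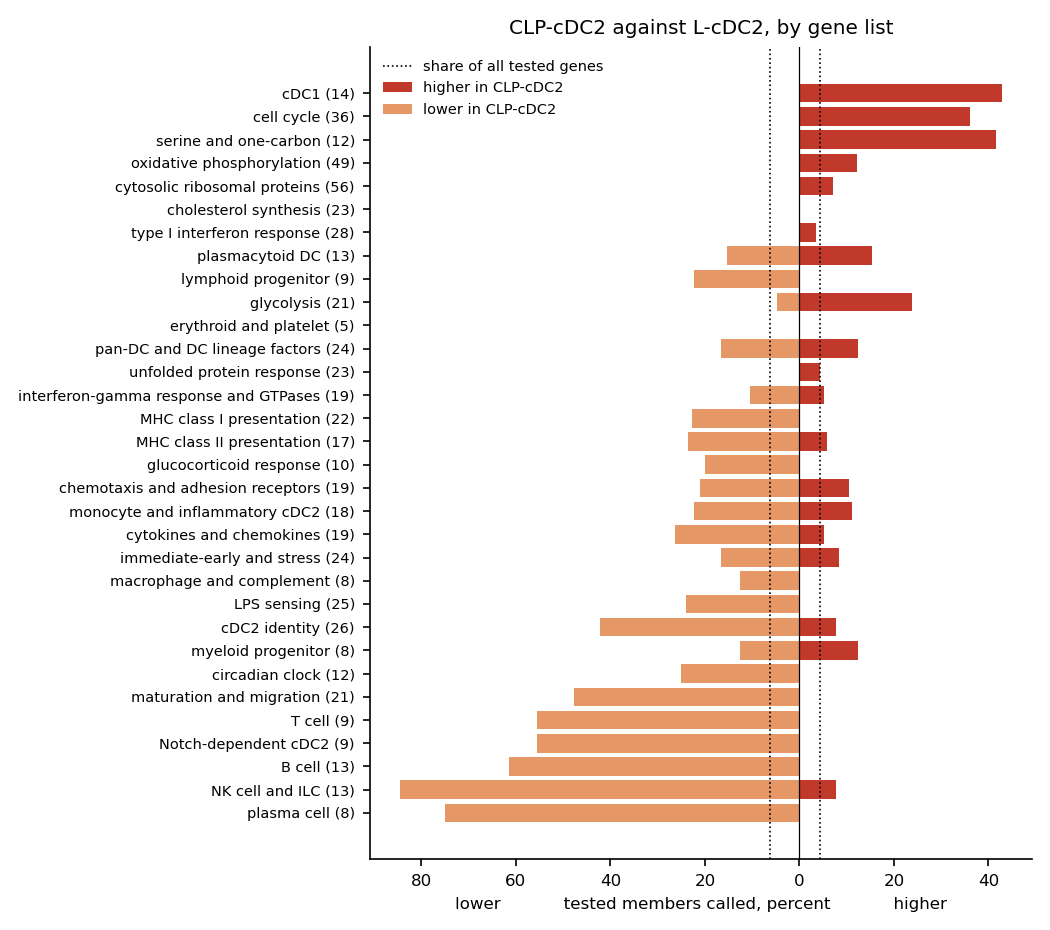
Share of the tested members of each gene list (x axis, percent, number tested in brackets) called higher in CLP-cDC2, to the right, or lower, to the left, with dotted lines at the 4.29% and 6.32% of all tested genes. Lists run from the highest median difference at the top, and those of NK, plasma and B cells reach farthest to the left.

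Genes of B cells and killer lymphocytes were among the largest differences, and they were higher in L-cDC2. Gzma, the granzyme A gene of killer lymphocytes, was at 0.322, 4.29 and 0.421 FPKM in CLP-cDC2 and 99, 95.4 and 136 FPKM in L-cDC2, a difference of -5.67 ± 0.49 (adjusted p = 1.62e-05). Cd79a, the other signalling chain of the B cell receptor, was at 0.172, 3.5 and 0.606 FPKM in CLP-cDC2 and 57.8, 51.8 and 50.9 FPKM in L-cDC2 (difference -4.74 ± 0.39, adjusted p = 9.36e-06). In both genes CLP-cDC2 replicate 2 was the highest of its group, and no CLP-cDC2 library reached L-cDC2. Cd79b, at like levels in both populations, did not follow Cd79a.

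By list, 8 of 13 tested B cell genes and 6 of 8 plasma cell genes were lower in CLP-cDC2. So were 11 of 13 NK and innate lymphoid genes and 5 of 9 T cell genes. The share lower over all genes tested was 6.32%. One member of these lists was higher, Klrd1, an NK receptor gene, at 130.3, 149.7 and 189 against 98.4, 76.1 and 82.1 FPKM (difference 0.85 ± 0.21, adjusted p = 0.0233), a call lost without CLP-cDC2 replicate 2, CLP-cDC2 replicate 3, L-cDC2 replicate 2 or L-cDC2 replicate 3. The median differences were -1.09 for B cells, -2.92 for plasma cells, -2.02 for NK and innate lymphoid cells and -0.99 for T cells. In CLP-cDC2 the B cell list summed to 490.1 to 1076 FPKM and in L-cDC2 to 1689 to 2407 FPKM. The NK and innate lymphoid list summed to 209.9 to 297.5 and 785.6 to 920.5 FPKM, the plasma cell list to 32.4 to 189.6 and 315.4 to 554.1 FPKM, and the T cell list to 19.8 to 28.2 and 48.4 to 63.6 FPKM. None of these summed ranges overlapped. In CDP-cDC2 and M-cDC2 the B cell list summed to 427.7 to 477.6 and 470.6 to 498.8 FPKM, and the NK and innate lymphoid list to 340.4 to 499 and 392.6 to 426.4 FPKM. Of the tested members of these lists, 1 plasma cell, 5 NK and innate lymphoid and 1 T cell gene passed the filter on low values only through L-cDC2, so the counts are a description. Those 7 genes leave the tested set when an L-cDC2 library is left out. The plasma cell count was 3 or less without CLP-cDC2 replicate 1, CLP-cDC2 replicate 3 or any L-cDC2 library, the NK and innate lymphoid count was 5, 5 and 6 without L-cDC2 replicates 1, 2 and 3, and the T cell count was 2, 3 and 2.

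Immunoglobulin genes showed the spread among CLP-cDC2 libraries. Igkc, the kappa light chain constant region, was at 20.1, 429 and 28.5 FPKM in CLP-cDC2 and 1370, 894 and 805 FPKM in L-cDC2 (difference -3.95 ± 0.86, adjusted p = 0.0126). CLP-cDC2 replicate 2 was far above the other two yet below each L-cDC2 library, and without CLP-cDC2 replicate 1 or replicate 3 the call was lost (highest adjusted p 0.0823). Of the 102 immunoglobulin and T cell receptor genes tested, 71 were lower and 0 higher in CLP-cDC2, where 6.32% of all tested genes were lower. The filter on low values can admit a gene through L-cDC2 alone, which fixes its direction. How many of the 102 entered that way was not counted, so this count is a description. Ighg2c, a class-switched heavy chain, was at 0.0222, 0.736 and 0.0178 against 17.3, 15.6 and 18.6 FPKM (difference -3.90 ± 0.26, adjusted p = 1.72e-06). It passed the filter on low values only through L-cDC2, and 20 of the 25 alternatives tested it. The part of lymphocyte RNA in the differences of other lists was not tested. Monocyte genes summed to 748.7 to 814.2 FPKM in CLP-cDC2 and 842.4 to 936.4 FPKM in L-cDC2. Plasmacytoid dendritic cell genes summed to 715.1, 547.7 and 546.1 FPKM in CLP-cDC2 and 631.3 to 686.5 FPKM in L-cDC2. Those ranges overlapped only through CLP-cDC2 replicate 1, as replicates 2 and 3 lay below every L-cDC2 library. Of 13 tested members 2 were higher (Cox6a2 and Bst2) and 2 lower (Spib and Pld4). That is 30.8% called, against 10.6% of all genes tested. Single libraries stood apart in other lists. Macrophage and complement genes summed to 18, 114 and 23.5 FPKM in CLP-cDC2 and 72.2, 75.8 and 72 FPKM in L-cDC2, with C1qb, a complement gene of macrophages, at 49.8 FPKM in CLP-cDC2 replicate 2 and at most 0.108 FPKM in the other two. Neutrophil genes summed to 0.438, 1.98 and 0.513 FPKM in CLP-cDC2 and 0.772, 48 and 0.704 FPKM in L-cDC2, and 1 of the 11 was tested. Erythroid and platelet genes, mostly globins, summed to 53.7, 496 and 107 FPKM in CLP-cDC2 and 36.7, 504 and 206 FPKM in L-cDC2, highest in replicate 2 of both. The part of these genes' source cells in other results was not tested. Ccl5, a chemokine of NK cells, T cells and some dendritic cells, was at 47.7, 111 and 64.3 FPKM in CLP-cDC2 and 453, 439.8 and 484 FPKM in L-cDC2 (difference -2.70 ± 0.25, adjusted p = 3.23e-05), and it is on the NK list as well as among the cytokines.

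Single genes far above L-cDC2 in CLP-cDC2 included Tdgf1, H2bu2, Rab7b, Dkkl1, Dusp28 and Galk1. Tdgf1, a growth factor coreceptor, was at 11.7, 8.6 and 8.59 FPKM in CLP-cDC2 and 1.19, 1.8 and 1.95 FPKM in L-cDC2 (difference 2.004 ± 0.30, adjusted p = 0.00123). H2bu2, a histone H2B gene, was at 23.3, 30.4 and 16.6 FPKM in CLP-cDC2 and 6.36, 5.37 and 4.71 FPKM in L-cDC2 (difference 1.88 ± 0.22, adjusted p = 0.000225), and it was also higher in CDP-cDC2 than in M-cDC2 (1.32, adjusted p = 0.0109). Rab7b, a GTPase of endosomes and lysosomes, was at 25.9, 19 and 17.7 FPKM in CLP-cDC2 and 6.1, 5.02 and 8.52 FPKM in L-cDC2 (difference 1.54 ± 0.23, adjusted p = 0.00138). Galk1, galactokinase, was at 54, 57.8 and 39.2 FPKM in CLP-cDC2 and 18.1, 21.6 and 23.3 FPKM in L-cDC2 (difference 1.21 ± 0.21, adjusted p = 0.00305). Dkkl1 and Dusp28 differed by 1.41 ± 0.23 and 1.34 ± 0.25 (adjusted p = 0.0023 and 0.00566). Every CLP-cDC2 library exceeded every L-cDC2 library in these 6 genes, and their calls held in the 25 alternatives. In the myeloid pair Rab7b went the other way, by -1.30 (contrast between the pairs 2.85 ± 0.33, adjusted p = 0.000657). Cox6a2, a cytochrome oxidase subunit also found in plasmacytoid dendritic cells, had the largest positive difference among the named genes (2.17 ± 0.52, adjusted p = 0.0201), but CLP-cDC2 replicate 1 stood at 56.1 FPKM against 13.1 and 13 in the others, and the call was lost without it, without L-cDC2 replicate 2 and without L-cDC2 replicate 3 (highest adjusted p 0.109).

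Differences shared by both pairs were few but included the largest of all. In the myeloid pair 375 genes were called (2.58%), and 106 of the lymphoid pair's calls were called there in the same direction, which is 6.87% of the lymphoid calls and 28.3% of the myeloid ones. A further 17 were called in opposite directions. H2-Ea, an MHC class II alpha chain that some mouse strains do not express, was at 0.569, 0.804 and 0.909 FPKM in CLP-cDC2 and 402, 409.9 and 445 FPKM in L-cDC2 (difference -7.90 ± 0.16, adjusted p = 9.33e-12). In the other pair it was at 1.48, 0.628 and 0.662 FPKM in CDP-cDC2 and 494, 508 and 459.6 FPKM in M-cDC2 (difference -8.02). Thus the gene separated the transfer libraries from the reporter-line libraries whatever the origin of the cells. H2-Q2, a class I gene, differed by -4.14 ± 0.13 and -3.89 in the 2 pairs, H2-Q4 by -1.80 ± 0.15 and -1.19, and Hebp1, a heme-binding protein gene, by -3.73 ± 0.16 and -3.35. Members of the H2 family resemble each other in sequence, and the sources used here do not give how the authors' counting divided reads among such copies.

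These shared differences were unevenly placed on the genome. For 42 genes called the same way in both pairs the log2 difference was at least 1 in size in both. Of these, 39 were lower and 3 higher in the transfer libraries. On chromosome 17, which holds 794 of the 14538 tested genes, lay 17 of the 42. In a window of that chromosome that spans the H2 genes, chr17:34560933-37794443 as deposited, 130 genes were tested. In the lymphoid pair 25 of them were lower and 4 higher (22.3% called, against 10.6% of all genes), and 17 were lower in both pairs. In the myeloid pair 17 were lower and 8 higher, where 2.58% of all tested genes were called. Of the 14538 tested genes 106 were called the same way in both pairs, lower or higher. The window was chosen after its values were seen. Its bounding genes, H2-Ea and H2-M2, were themselves called lower in both pairs, so its counts are a description. Not all MHC class II genes were among the lower genes: H2-Ab1 differed by -0.04 ± 0.11 (interval -0.29 to 0.20). Strain of origin, transfer and reporter line cannot be told apart here.

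**Figure D5:**
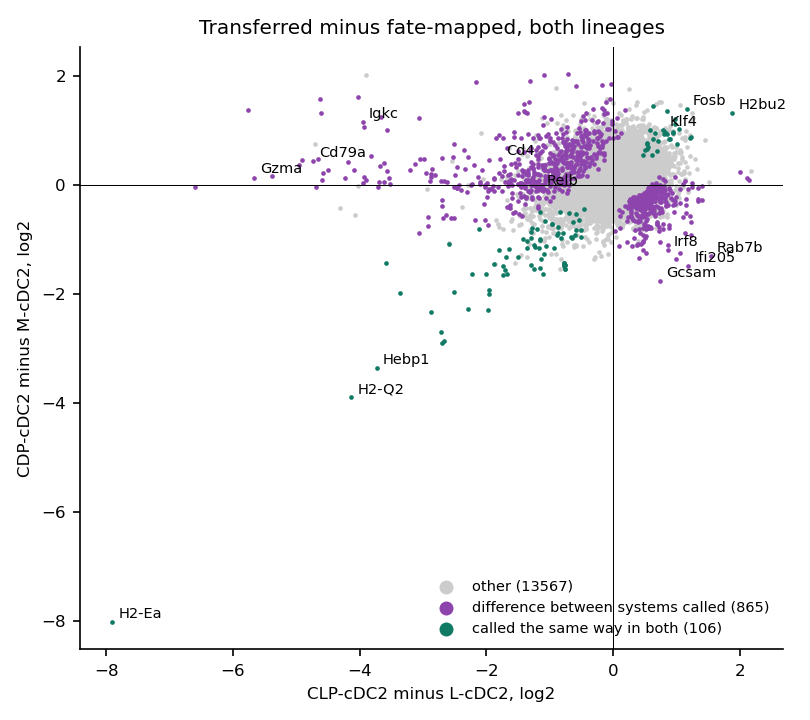
Log2 difference of each tested gene between the transfer and reporter-line libraries in the lymphoid pair (x axis, CLP-cDC2 minus L-cDC2) and the myeloid pair (y axis, CDP-cDC2 minus M-cDC2), 1 point a gene. The 106 genes called the same way in both lie along the diagonal with H2-Ea at its lower end, and Gzma, Cd79a and Igkc lie far to the left near or above 0 on the y axis.

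Beyond the shared part, 871 genes (5.99%) had a difference in the lymphoid pair that itself differed from that of the myeloid pair, 346 more positive and 525 more negative. They included 605 of the 1542 genes called between CLP-cDC2 and L-cDC2 (39.2%). The rest of those calls were not shown to differ from the myeloid pair. For orientation, 252 genes (1.73%) were called between L-cDC2 and M-cDC2 and 1910 (13.1%) between CLP-cDC2 and CDP-cDC2, comparisons that share L-cDC2 or CLP-cDC2 libraries with the one described here. Leaving out a library moved the count of 871 to between 190 (without L-cDC2 replicate 2) and 1240 (without CDP-cDC2 replicate 1).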

How the data were processed

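Per the labels' protocols, RNA of 12 splenic cDC2 samples was purified on columns, amplified with SMART-Seq HT and tagmented with Nextera XT. The authors deposited 1 table of FPKM, which lists 55322 genes. The submitters' processing notes name STAR 2.7.9a and featureCounts 2.0.1, the trimmers cutadapt 3.7, Trimmomatic 0.39 and Trim Galore 0.6.7, and DESeq2 1.20.0, besides the builds GRCh38 and GRCm38, without saying which step used what. The build of the deposited coordinates and the use of strand are not given in the sources used here. Assigned reads per library were worked out from the spacing of the deposited FPKM values, taking the commonest low value as 1 read, and limits low genes by counting error.

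Genes at 1 FPKM or more in at least 3 libraries were analysed as log2(FPKM + 1). limma 3.58.1 (R 4.3.3; moderated test with a mean-variance trend, two-sided) fitted all 12 libraries with 4 group means and no covariate, with Benjamini-Hochberg adjustment over all genes of a contrast. Tables were joined and plotted with pandas 2.3.3 and matplotlib 3.10.9. The fit was tested on simulated data.

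The members and the 34 gene lists were chosen with earlier results of these data known, so list counts are descriptions. Named genes were the 12 largest called differences in each direction (mean of at least 5 FPKM, no overlap), up to 2 called members per list and direction, 28 genes fixed by name, the 5 largest contrasts between the pairs per direction and 5 dendritic cell genes with intervals inside 0.5. Some genes that the rule names are not reported here. Other list members named, and both genomic windows, were chosen after their values were seen. Promoter sequences are RefSeq's (GRCm38.p6). Alternatives changed the pseudocount, filter, scaling, samples in the fit, weights, trend, block and gene set, used voom on recovered reads, and left out each library.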

Additional observations from a re-analysis of the deposited data

Results flagged for a closer look

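Results are listed here where the difference between CLP-cDC2 and L-cDC2 itself differed from that between CDP-cDC2 and M-cDC2, by limma's contrast of the pairs with a Benjamini-Hochberg adjusted p under 0.05. This held for 871 genes in all, the genes below among them. Values are the lymphoid difference minus the myeloid one on the log2(FPKM + 1) scale, so a negative value is a more negative difference in the lymphoid pair.

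Genes of lymphocytes gave the largest contrasts. They were -5.94 for Iglc1, -5.37 for Iglc2, -5.12 for Igkc, -3.99 for Ighg2c and -3.47 for Ighg2b among antibody genes, and -5.18 for Cd79a, a B cell gene. In cytotoxic cell genes the contrasts were -5.81 for Gzma, -4.80 for Nkg7, -3.68 for Gzmb, -2.43 for Ccl5 and -2.30 for Prf1. Gimap4 (-4.02), Trbc2 (-2.56), Cd2 (-2.18), S1pr1 (-1.68), Ets1 (-1.03), Gata3 (-0.80) and Runx3 (-0.61), expressed in T cells among others, had the same sign. Of the genes listed here, Gzmb, Prf1, Ighg2c, S1pr1, Gata3 and Nr1d1 passed the filter on low values only through the 3 L-cDC2 libraries, so each had to be high there to be tested and its contrast is a description.

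Among genes of dendritic and myeloid cells the contrast was negative for the lectins Mgl2 (-2.29), Clec10a (-1.57) and Cd209a (-1.53), for Cd4 (-2.26), Sirpa (-1.74), Adgre1 (-1.64), Lyz2 (-1.55), Itgax (-1.45), Itgam (-1.24), Zbtb46 (-1.11), Relb (-1.07), Tbx21 (-1.05), Csf2ra (-0.86) and Cd74 (-0.74). Maturation and regulatory genes with a negative contrast were Cacnb3 (-1.93), Errfi1 (-1.67), Tgm2 (-1.50), Ccr7 (-1.26), Nr1d1 (-1.21) and Nfkbie (-0.70).

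Positive contrasts included Rab7b (2.85), Ifi205 (2.67), Gcsam (2.50), Cd24a (2.34), Pdia5 (2.29), Irf8 (2.04), Clec9a (1.91), Galk1 (1.77), Tdgf1 (1.76), Xcr1 (1.75), Dkkl1 (1.69), Dusp28 (1.62) and Clec12a (1.53). Those of growth and metabolism were smaller, at 0.91 for Stmn1, 0.90 for Tpi1, 0.83 for Tyms, 0.64 for Atp5c1 and 0.58 for Gapdh. For 11 genes, Irf8, Rab7b, Ifi205, Pdia5 and Gcsam among them, both pairs were called and in opposite directions, with the gene higher in CLP-cDC2 than in L-cDC2 and lower in CDP-cDC2 than in M-cDC2.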

How the results depend on the processing

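Of 107 genes named under the rule 88 were called, and 53 of these kept their call in each of the 25 alternatives that tested them, while 35 lost it in at least 1. Of the 19 uncalled named genes 5 gained a call. No called value changed sign among the results recomputed, while 5 uncalled ones took both signs: Rbpj (-0.09 to 0.09), Irf4 (-0.12 to 0.14), H2-Ab1 (-0.12 to 0.04), Ly6d (-0.42 to 0.33) and Hbb-bs (-1.60 to 1.13). Without a filter on low values, 293 genes were higher, 40738 were within 2-fold and the contrast of the pairs had 255 genes, and with a filter of 5 FPKM 6794 were within 2-fold, against 8981 with a pseudocount of 0.1, 13826 with one of 5 and 8676 with voom. With array weights 1127 were higher and the contrast had 2044. Deviations of same-numbered CLP-cDC2 and L-cDC2 libraries had correlations of -0.007, -0.039 and 0.011. Pairing by number that involves the other groups was not examined, and the labels do not state any. With the replicate block the contrast had 477 genes.

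Leaving out 1 library gave 133 to 1005 genes higher, 370 to 1340 lower and 190 to 1240 in the contrast. The count higher moved by over 1.5 times without any CLP-cDC2 library (268, 359 and 368), any L-cDC2 library (349, 133 and 283) or CDP-cDC2 replicate 3 (1005). The count lower did so without CLP-cDC2 replicate 1 (594) or any L-cDC2 library (525, 370 and 504). The contrast did so without CLP-cDC2 replicates 1 and 2 (512 and 424), any L-cDC2 library (397, 190 and 322), CDP-cDC2 replicate 3 (578) or M-cDC2 replicates 2 and 3 (348 and 514). Calls higher were 40.4% of all calls, and 48.4% after quantile normalization, 48.2% with the filter of 5 FPKM, 30.9% with no filter and 26.4% without L-cDC2 replicate 2. The excess distance between groups ran from 0.111 to 0.334, with the smallest exact p in each case. The cause of these changes was not tested. Depth limits genes near 1 FPKM most.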

Other observations

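A group of predicted genes on chromosome 5 lay in the window chr5:11187246-11906148 as deposited. Of 6 tested members 5 were called higher in CLP-cDC2 than in L-cDC2, against 4.29% of all genes tested. Between CDP-cDC2 and M-cDC2 0 were called, against 2.58% of all genes tested. How many members passed the filter on low values only through CLP-cDC2 was not counted, so these counts are a description. The window was chosen after its values were seen. RP23-92D22.3, a processed pseudogene in the deposited annotation, was at 15.7, 10.7 and 8.79 FPKM in CLP-cDC2 and 1.71, 1.65 and 2.23 FPKM in L-cDC2 (difference 2.12 ± 0.23, limma adjusted p = 8.75e-05). In CDP-cDC2 it was at 0.779, 0.0971 and 0.313 FPKM and in M-cDC2 at 0.137, 0.428 and 0.211 FPKM, so that the lymphoid libraries of both systems were above all myeloid ones. Gm32554, a long noncoding RNA, was at 5.91, 7.22 and 5.11 against 0.724, 0.436 and 0.632 FPKM (difference 2.14 ± 0.16, adjusted p = 6.41e-06). Gm29755, Gm8891 and 1700003C15Rik were also called, and Gm8890 was not (difference 0.64 ± 0.26). Copies of like sequence may share reads in this window, and the sources used here do not give how the authors' counting treated them.

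Several genes outside the lists were far below L-cDC2 in CLP-cDC2. Mmp9, a secreted protease that cuts extracellular matrix, was at 0.649, 0.465 and 0.266 FPKM in CLP-cDC2 and 11.9, 14.2 and 16 FPKM in L-cDC2 (difference -3.37 ± 0.15, adjusted p = 4.63e-08), and it was also lower in CDP-cDC2 than in M-cDC2 (-1.97, adjusted p = 1.75e-05). Apol7c, an apolipoprotein L family gene, was at 1.46, 0.857 and 0.751 FPKM in CLP-cDC2 and 13.3, 11.5 and 17.6 FPKM in L-cDC2 (difference -2.90 ± 0.21, adjusted p = 4.38e-06). In the myeloid pair its difference was 0.09, and the contrast between the pairs was called (-2.98 ± 0.30, adjusted p = 0.00026). Cdkn2b, the p15 cell cycle inhibitor, was at 0, 0.126 and 0 FPKM in CLP-cDC2 and 4.77, 4.09 and 7.34 FPKM in L-cDC2 (difference -2.59 ± 0.18, adjusted p = 2.54e-06). It was also lower in CDP-cDC2 than in M-cDC2 (-1.07, adjusted p = 0.00956), and the contrast between the pairs was called (-1.51 ± 0.25, adjusted p = 0.00605). In none of the 3 genes did the CLP-cDC2 and L-cDC2 libraries overlap.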
